A study of Mus musculus with 9 samples.

Results

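Transcripts of the translation initiation factors (Eif genes) and elongation factors (Eef genes) were followed in nuclei and cytoplasms of mouse oocytes with and without MTR4. Members were all gene symbols of the deposited table that begin with Eif1 to Eif6, Eef1 or Eef2, other than the Eif2ak and Eif2c genes, Eif4enif1 and Eif4e1b. This rule gave 56 of 23235 gene symbols, and 54 of them reached at least 1 FPKM (fragments mapped to a transcript per unit of its length and of the library) in at least 1 column. The other members, Eef1a2, an elongation factor of muscle and neurons, and Eif2s3y, which lies on the Y chromosome, were listed at 0 in all 4 columns. At 5 FPKM or more in all 4 columns were 49 members.

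The groups were nuclei of MTR4-null oocytes (2 samples in the labels), nuclei of wild-type (WT) oocytes (3 samples), cytoplasms of MTR4-null oocytes (2 samples) and cytoplasms of WT oocytes (2 samples), all labelled day 21. Nucleus and cytoplasm of each oocyte were parted by micromanipulation, and 10 of either were pooled per sample for total RNA sequencing after removal of ribosomal RNA. The sources used here give neither the null allele, the Cre driver nor the strain. The authors deposited 1 FPKM value per gene and group, so no difference below has a replicate check, and no SD, n or p-value can be given. Differences are on the log2(FPKM + 1) scale, MTR4-null minus WT or nucleus minus cytoplasm, and a gene is counted when it is 2-fold or more apart on that scale.

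Protein synthesis begins when eIF2 brings the initiator tRNA to the small ribosomal subunit, eIF3 keeps that subunit ready, and the eIF4 proteins load it onto the capped end of an mRNA. eIF2B recharges eIF2 with GTP, and kinases of eIF2 brake this step in stress. eEF1 then delivers each aminoacyl-tRNA and eEF2 moves the ribosome along. A growing oocyte makes and stores large amounts of mRNA and translates part of it later, under control of its caps and poly(A) tails. MTR4 is an RNA helicase that hands nuclear transcripts to the exosome for decay.

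Before the members, the columns themselves were checked. Mtr4, listed under its older symbol Skiv2l2, was at 2.91 FPKM in the MTR4-null nucleus and 16.2 FPKM in the WT nucleus, and at 2.51 FPKM in the MTR4-null cytoplasm and 21.6 FPKM in the WT cytoplasm. The labels do not name the exons deleted. All 12 oocyte markers reached 1 FPKM in every column, with summed levels of 6449 to 10503 FPKM. The 15 markers of granulosa cells, which surround the oocyte, summed to 125 FPKM in the MTR4-null nucleus against 155 FPKM in the WT nucleus, and to 89.7 FPKM in the MTR4-null cytoplasm against 151 FPKM in the WT cytoplasm. From 9 to 13 of them reached 1 FPKM in a column, and Amh was listed at 0 in the WT nucleus. Serpine2 alone was at 64.8 and 72.8 FPKM in MTR4-null and WT nuclei and at 44.3 and 89.2 FPKM in MTR4-null and WT cytoplasms. Of 14 granulosa markers kept, 4 were 2-fold or more higher and 4 lower in the MTR4-null nucleus (28.6% each, with 23.9% and 12.3% of all genes kept). In the MTR4-null cytoplasm 0 were higher and 2 lower (14.3%, with 21.4% of all genes kept). Genes of small RNAs took 53.5% of the summed FPKM in the MTR4-null nucleus against 57.7% in the WT nucleus, but 39.0% in the MTR4-null cytoplasm against 4.09% in the WT cytoplasm. The 7 RNAs known to stay in the nucleus summed to 23983 FPKM in the MTR4-null nucleus, 15238 FPKM in the WT nucleus, 20291 FPKM in the MTR4-null cytoplasm and 283 FPKM in the WT cytoplasm, where Miat was listed at 0. Rmrp and Rpph1 made up most of each sum. In the nucleus Rmrp was at 11013 FPKM in MTR4-null against 2733 FPKM in WT, and Rpph1 at 12556 against 11847 FPKM. Of the 6 that reached 1 FPKM in a column, 4 were below 0 between the nuclei, with a median of -0.51. Between the cytoplasms 5 were above 0. Rmrp, Rpph1 and Terc also count among the genes of small RNAs. Summed levels of these RNAs move with the genotype in the cytoplasm, and their part in the results below was not tested. In pooled samples, a different number of cells and a different amount of RNA per cell cannot be told apart.

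Translation factors were abundant in all 4 columns. Their summed level was 3820 FPKM in the MTR4-null nucleus, 3771 FPKM in the WT nucleus, 2521 FPKM in the MTR4-null cytoplasm and 4651 FPKM in the WT cytoplasm. As a share of the FPKM sum without small RNA genes, this was 0.932% in the MTR4-null nucleus against 1.04% in the WT nucleus, while it was 0.955% in the MTR4-null cytoplasm against 1.16% in the WT cytoplasm. Eef1a1, which carries aminoacyl-tRNAs to the ribosome, was the highest member in each column, with a mean of 485 FPKM over the 4 columns. It was followed by the helicase gene Eif4a1 at a mean of 245 FPKM, the start codon factor Eif1b at 201, Eif5a at 174, the start codon factor Eif1ax at 165, Eef2 at 157, Eif1 at 153, the eEF2 kinase gene Eef2k at 151, Eif6 at 137 and the eIF3 subunit gene Eif3k at 102. The order of the 54 members was closer between compartments than between genotypes: Spearman's rho was 0.95 between MTR4-null nucleus and cytoplasm and 0.97 between WT nucleus and cytoplasm, against 0.88 between the nuclei and 0.89 between the cytoplasms of the genotypes. Over all 14270 genes kept, rho was 0.92 between MTR4-null compartments, 0.88 between WT compartments, 0.79 between the nuclei and 0.83 between the cytoplasms. These are descriptions across genes, which are not independent replicates.

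**Figure D1:**
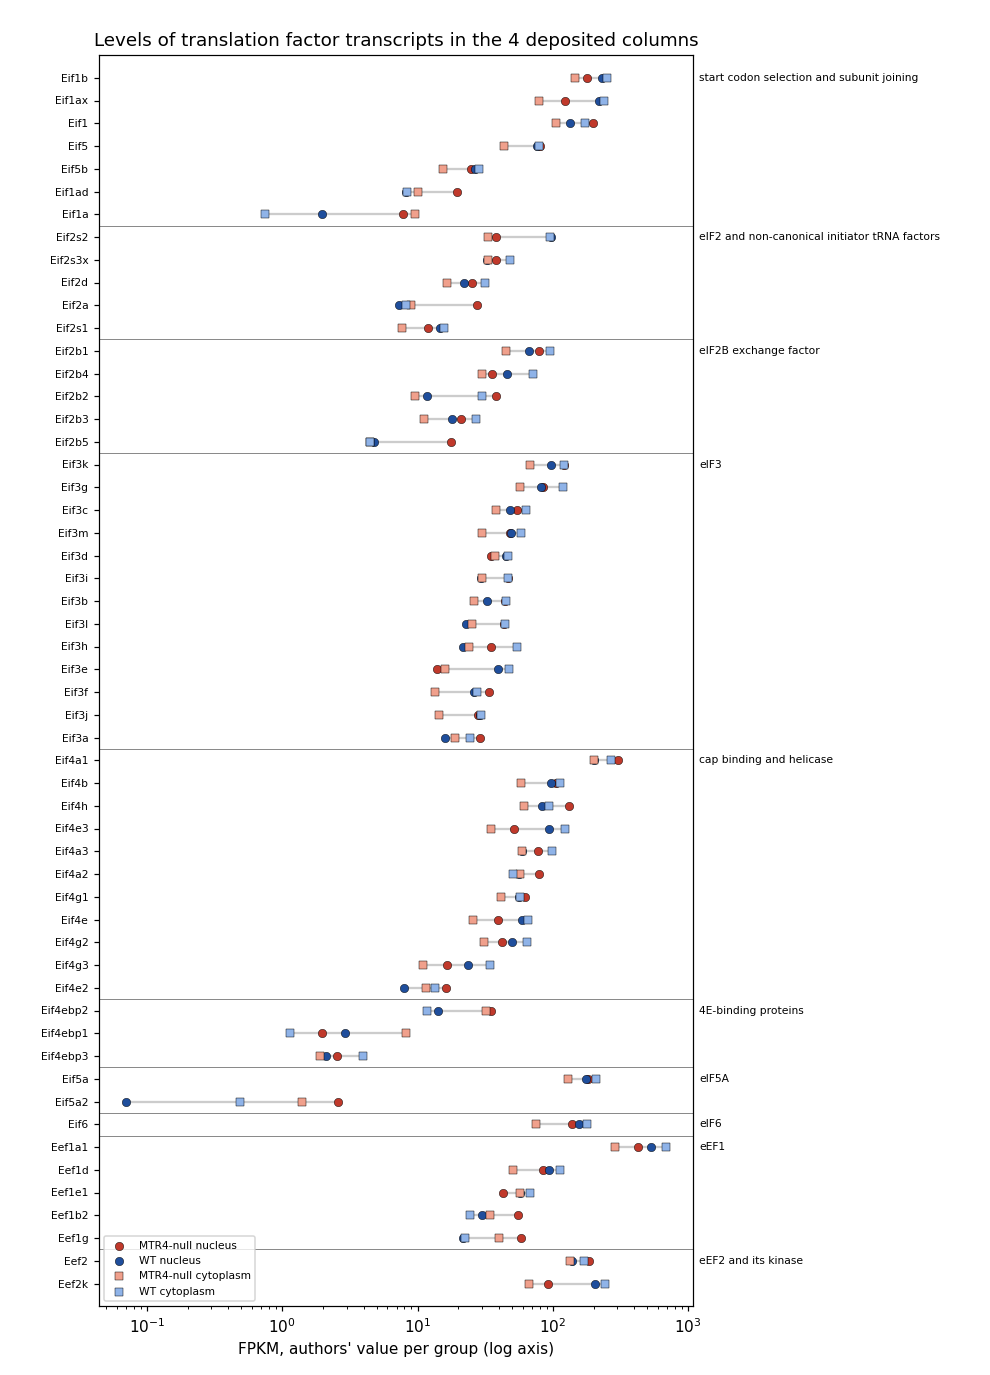
FPKM of 54 translation factors on a log axis, 1 point per deposited column, with genes in rows grouped by role and ordered by mean level. Eef1a1 lies farthest right at 290 to 686 FPKM, and Eif5a2, Eif1a and Eif4ebp1 have the widest spread between columns among genes below 10 FPKM.

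In the nucleus, 8 members were 2-fold or more higher in MTR4-null than in WT (14.8% of 54, with 23.9% of all genes kept 2-fold or more higher), and 3 were 2-fold or more lower (5.56%, with 12.3% of all genes kept). Both shares lie below the background. The higher members were Eef1g, Eif1a, Eif1ad, Eif2a, Eif2b2, Eif2b5, Eif4ebp2 and Eif5a2, and the lower ones Eef2k, Eif2s2 and Eif3e. The members' median difference was 0.19, beside 0.21 over all genes kept, and it was -0.0026 with centring on genes at 1 FPKM or more in all 4 columns and -0.015 with centring on all genes kept. Among the 49 members at 5 FPKM or more in all columns, 5 were higher (10.2%) and 3 lower (6.12%), beside 14.3% and 5% of the 6479 genes at that level.

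In the cytoplasm, 3 members were 2-fold or more higher in MTR4-null than in WT (5.56%, with 15% of all genes kept) and 17 were 2-fold or more lower (31.5%, with 21.4% of all genes kept). The higher members were Eif1a, Eif4ebp1 and Eif4ebp2. Among the 49 members at 5 FPKM or more in all columns, 1 was higher and 17 lower (34.7%), beside 4.37% and 29.1% of genes at that level, so the share of lower members is near that of other abundant genes. The members' median was -0.79, beside -0.26 over all genes kept and -0.63 over genes at 5 FPKM or more in all columns. This count depended on scaling: 2 to 8 members were 2-fold or more lower under the 4 other scalings (3.70% to 14.8%, with 5.21% to 13.0% of all genes kept), which is near the background, and the median lay between -0.52 and -0.15. Eef2k, Eif4e3, Eif1a, Eif4ebp1 and Eif4ebp2 were 2-fold or more apart under all 7 alternatives.

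The genotype comparisons of nucleus and cytoplasm share no column. Of 54 members, 26 were above 0 in the nucleus and below 0 in the cytoplasm, 19 were below 0 in both, 8 were above 0 in both, and Eif4ebp1 alone was below 0 in the nucleus and above 0 in the cytoplasm. Members 2-fold or more apart in both compartments were Eif1a and Eif4ebp2, higher in both, Eef2k, Eif2s2 and Eif3e, lower in both, and Eif2b2, higher in the nucleus and lower in the cytoplasm. Shares of all genes with these joint patterns were not computed. Of genes at 5 FPKM or more in all columns, 59.2% were above 0 in the nucleus and 78.1% below 0 in the cytoplasm. At that level the shares of members were 61.2% and 87.8%. The sign of small differences depended on scaling.

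**Figure D2:**
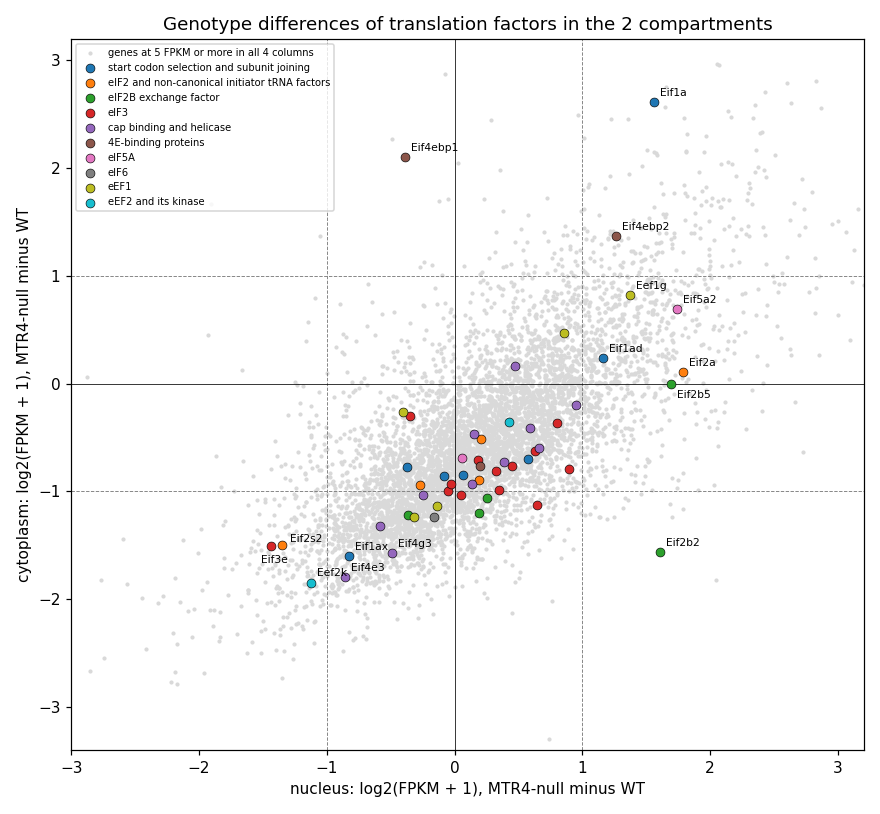
Genotype difference (MTR4-null minus WT, log2(FPKM + 1)) in the cytoplasm against that in the nucleus, for 54 translation factors coloured by role over grey points for genes at 5 FPKM or more in all 4 columns. Dashed lines mark 2-fold, some grey points lie outside the axes, and Eif2b2 stands alone at the lower right with 1.60 in the nucleus and -1.57 in the cytoplasm.

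Among the start codon factors, Eif1a and Eif1ax differed in opposite directions. Both encode eIF1A, which together with eIF1 lets the small subunit scan for the start codon. Eif1a was at 7.75 FPKM in the MTR4-null nucleus against 1.96 FPKM in the WT nucleus, and at 9.66 FPKM in the MTR4-null cytoplasm against 0.741 FPKM in the WT cytoplasm. Both MTR4-null columns were above both WT columns, with log2 differences of 1.56 in the nucleus and 2.61 in the cytoplasm. Eif1ax, the more abundant copy, was at 123 FPKM in the MTR4-null nucleus against 219 FPKM in the WT nucleus, and at 78.5 FPKM in the MTR4-null cytoplasm against 241 FPKM in the WT cytoplasm. Here both MTR4-null columns were below both WT columns, with differences of -0.83 and -1.60, and the cytoplasmic value came to -0.97 with centring on genes at 5 FPKM or more in all columns. Eif1ax thus exceeded Eif1a 15.9-fold in the MTR4-null nucleus and 111-fold in the WT nucleus, and 8.13-fold in the MTR4-null cytoplasm and 325-fold in the WT cytoplasm. Eif1a has a near-identical copy, Gm8332, and reads of the pair may have been split or shared in the authors' counting.

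The remaining genes of this class differed less. Eif1, which guards the choice of the start codon, was at 198 FPKM in the MTR4-null nucleus against 133 FPKM in the WT nucleus, and at 106 FPKM in the MTR4-null cytoplasm against 173 FPKM in the WT cytoplasm. Its close relative Eif1b was at 178 and 232 FPKM in MTR4-null and WT nuclei and at 145 and 250 FPKM in MTR4-null and WT cytoplasms. Neither was 2-fold apart between genotypes, and Eif1 has 13 near-identical copies in the annotation. Eif1ad, named for a domain like that of eIF1A, was at 19.5 FPKM in the MTR4-null nucleus against 8.20 FPKM in the WT nucleus, and at 10.1 FPKM in the MTR4-null cytoplasm against 8.41 FPKM in the WT cytoplasm. Only its nuclear difference of 1.16 passed 2-fold, it came to 0.95 at the lowest scaling, and the gene shares 428 exonic bases with Banf1 on the opposite strand. Eif5 and Eif5b, the GTPase-activating protein of eIF2 and the GTPase that joins the subunits, ranged from 15.4 to 80.4 FPKM, with 1643 exonic bases of Eif5b shared with Rev1 on the opposite strand, and were not 2-fold apart in any of the 4 comparisons.

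The subunits of eIF2 did not differ together. Eif2s2, which encodes eIF2 beta, was at 37.7 FPKM in the MTR4-null nucleus against 97.7 FPKM in the WT nucleus, and at 33.0 FPKM in the MTR4-null cytoplasm against 95.2 FPKM in the WT cytoplasm. Both MTR4-null columns were below both WT columns, with a nuclear difference of -1.35 and a cytoplasmic one of -1.50, which came to -0.87 at the scaling nearest 0. Eif2s1, which encodes the alpha subunit that stress kinases phosphorylate, was at 11.9 FPKM in the MTR4-null nucleus against 14.6 FPKM in the WT nucleus, and at 7.69 FPKM in the MTR4-null cytoplasm against 15.7 FPKM in the WT cytoplasm. Its cytoplasmic difference was -0.94 on the log2(FPKM + 1) scale, just within 2-fold, and its plain ratio of 0.489 was just outside. Eif2s2 exceeded Eif2s1 3.16-fold in the MTR4-null nucleus against 6.68-fold in the WT nucleus, and 4.29-fold in the MTR4-null cytoplasm against 6.05-fold in the WT cytoplasm. The gamma subunit gene of the X chromosome, Eif2s3x, was at 37.7 FPKM in the MTR4-null nucleus and 32.6 FPKM in the WT nucleus, and at 33.3 FPKM in the MTR4-null cytoplasm and 48.0 FPKM in the WT cytoplasm. Eif2s1 has 2 near-identical copies in the annotation, and Eif2s2 and Eif2s3x have 1 each, so part of their reads may sit with these. Eif2a, which is no eIF2 subunit but can bring initiator tRNA to ribosomes by another route, was at 27.7 FPKM in the MTR4-null nucleus against 7.32 FPKM in the WT nucleus, and at 8.89 FPKM in the MTR4-null cytoplasm against 8.21 FPKM in the WT cytoplasm. The MTR4-null nucleus stood above the other 3 columns, with a nuclear difference of 1.78. Eif2d, a further factor that can bring initiator tRNA to ribosomes, lay between 16.5 and 31.6 FPKM and was not 2-fold apart between genotypes. Eif2a shares 72 exonic bases with Serp1 on the opposite strand, and whether the library kept the strand is not stated.

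The exchange factor eIF2B held the member with the widest gap between the compartments. Eif2b2 encodes its beta subunit, and Eif2b5 encodes epsilon, which catalyses the exchange of GDP for GTP on eIF2. Eif2b2 was at 37.8 FPKM in the MTR4-null nucleus against 11.8 FPKM in the WT nucleus, and at 9.54 FPKM in the MTR4-null cytoplasm against 30.2 FPKM in the WT cytoplasm. The MTR4-null nucleus and the WT cytoplasm were thus the high columns, with differences of 1.60 in the nucleus and -1.57 in the cytoplasm. The nuclear value ranged from 1.40 to 1.68 and the cytoplasmic one from -1.65 to -0.93 over the alternatives. Eif2b5 was at 17.7 FPKM in the MTR4-null nucleus against 4.78 FPKM in the WT nucleus, and at 4.42 FPKM in the MTR4-null cytoplasm against 4.43 FPKM in the WT cytoplasm. As deposited, Eif2b5 passed 2-fold between genotypes in the nucleus alone, at 1.69. Its share of the summed eIF2B level does not depend on how a column is scaled. That share, given below, was higher in MTR4-null in both compartments.

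Eif2b1, Eif2b3 and Eif2b4 encode the alpha, gamma and delta subunits. Eif2b1 was at 79.5 FPKM in the MTR4-null nucleus against 66.5 FPKM in the WT nucleus, and at 45.1 FPKM in the MTR4-null cytoplasm against 95.2 FPKM in the WT cytoplasm. Eif2b3 was at 20.8 FPKM in the MTR4-null nucleus against 18.1 FPKM in the WT nucleus, and at 11.2 FPKM in the MTR4-null cytoplasm against 27.0 FPKM in the WT cytoplasm. Eif2b4, which shares 204 exonic bases with Snx17 on the opposite strand, was at 35.4 FPKM in the MTR4-null nucleus against 45.8 FPKM in the WT nucleus, and at 30.2 FPKM in the MTR4-null cytoplasm against 71.5 FPKM in the WT cytoplasm. All were lowest in the MTR4-null cytoplasm, with differences of -1.22 to -1.06 from the WT cytoplasm, and all came within 2-fold under each of the 4 other scalings. Counting Eif2b2, 4 of 5 subunits passed 2-fold in the MTR4-null cytoplasm as deposited, all lower (80%, with 21.4% of all genes kept and 29.1% of genes at 5 FPKM or more in all columns), and at most 1 did so after rescaling or centring. Of the summed eIF2B level, Eif2b2 made up 19.8% in the MTR4-null nucleus against 8.0% in the WT nucleus, while it was 9.5% in the MTR4-null cytoplasm against 13.2% in the WT cytoplasm. Eif2b5 made up 9.23% against 3.25% in MTR4-null and WT nuclei, and 4.40% against 1.94% in MTR4-null and WT cytoplasms.

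The starts of 4 of these genes are shown because the subunits of 1 complex differed unequally, with Eif2b2 and Eif2b5 high in the MTR4-null nucleus and Eif2b1 and Eif2b4 not. Each sequence, from RefSeq on GRCm38.p6, runs 5′ to 3′ on the gene's strand from 100 bases before to 30 bases after the annotated start, and capitals mark CCGGAAGT, the core motif bound by ETS family factors. Eif2b1 lies at chr5:124579102-124579231 on the minus strand, Eif2b2 at chr12:85219381-85219510 on the plus strand, Eif2b4 at chr5:31193110-31193239 on the minus strand and Eif2b5 at chr16:20498717-20498846 on the plus strand.
Eif2b1: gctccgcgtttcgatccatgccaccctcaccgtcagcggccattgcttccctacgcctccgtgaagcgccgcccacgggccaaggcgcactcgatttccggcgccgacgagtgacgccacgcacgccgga
Eif2b2: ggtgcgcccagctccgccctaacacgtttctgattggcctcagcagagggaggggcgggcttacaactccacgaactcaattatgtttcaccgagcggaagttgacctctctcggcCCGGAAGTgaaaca
Eif2b4: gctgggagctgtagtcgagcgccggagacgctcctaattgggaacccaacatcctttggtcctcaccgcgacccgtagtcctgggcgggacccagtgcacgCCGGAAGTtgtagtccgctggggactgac
Eif2b5: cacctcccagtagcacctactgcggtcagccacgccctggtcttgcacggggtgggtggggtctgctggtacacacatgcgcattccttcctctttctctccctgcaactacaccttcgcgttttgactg

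In the 300 bases from 250 before to 50 after a gene start, searched on both strands, 8 of 43 members with a promoter in the table held CCGGAAGT (18.6%), beside 8.31% of 9936 genes kept. They were Eef1b2, Eif2b2, Eif2b4, Eif3d, Eif3l, Eif4e2, Eif5a and Eif5a2. TATAAA was found in 11.6% of member promoters and 9.5% of all, and TGACGTCA, bound by CREB factors, in 2.33% and 3.51%. Eif2b2 and Eif2b4 share the first motif, while Eif2b2 was 3.21-fold higher in the MTR4-null nucleus by plain FPKM ratio and Eif2b4 was at 0.773 of WT there.

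eIF3, the scaffold of the small subunit, had 13 measured subunit genes. In the MTR4-null cytoplasm all 13 were below WT as deposited, with a median of -0.82 and a range of -1.50 to -0.30. Of genes at 5 FPKM or more in all columns, 78.1% were below 0 in the same comparison, and 10 to 13 of the 13 subunit genes were below 0 under the other scalings. Eif3e, Eif3g and Eif3h were 2-fold or more lower there (23.1%, with 29.1% of genes at that level). Between the nuclei 9 were above 0 and 4 below, with a median of 0.32, which was between 0.12 and 0.16 under the other scalings. Eif3e was the only subunit gene 2-fold apart in the nucleus, at 13.9 FPKM in the MTR4-null nucleus against 39.4 FPKM in the WT nucleus. In the cytoplasm it was at 16.1 FPKM in MTR4-null against 47.5 FPKM in WT. Both MTR4-null columns were below both WT columns, with differences of -1.44 and -1.50, and the cytoplasmic one came to -0.87 at the scaling nearest 0. Eif3e has 2 near-identical copies in the annotation.

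Eif3h and Eif3f encode the MPN-domain pair of eIF3. Eif3h was at 34.7 FPKM in the MTR4-null nucleus against 21.9 FPKM in the WT nucleus, and at 24.1 FPKM in the MTR4-null cytoplasm against 54.1 FPKM in the WT cytoplasm, so the WT cytoplasm stood highest. Eif3f was at 33.7 FPKM in the MTR4-null nucleus against 26.3 FPKM in the WT nucleus, and at 13.4 FPKM in the MTR4-null cytoplasm against 27.4 FPKM in the WT cytoplasm, so the MTR4-null cytoplasm stood lowest. The most abundant subunit genes were Eif3k and Eif3g. Eif3k was at 121 FPKM in the MTR4-null nucleus against 96.7 in the WT nucleus, and at 68.2 FPKM in the MTR4-null cytoplasm against 121 in the WT cytoplasm. Eif3g was at 84.7 FPKM in the MTR4-null nucleus against 81.6 in the WT nucleus, and at 57.6 FPKM in the MTR4-null cytoplasm against 119 in the WT cytoplasm. Eif3g alone of the pair passed 2-fold between cytoplasms, at -1.04, and it no longer did so under any of the 4 other scalings. The other 8 subunit genes, Eif3a, Eif3b, Eif3c, Eif3d, Eif3i, Eif3j, Eif3l and Eif3m, ranged from 14.3 to 63.1 FPKM and were not 2-fold apart on this scale in any comparison.

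The cap-binding complex joins eIF4E, which binds the cap, to eIF4A, an RNA helicase, by way of the scaffold eIF4G. The class of cap binding and helicase genes, which also holds relatives and partners of these proteins, has 11 members. None of them was 2-fold apart between the nuclei as deposited, where the median was 0.15. Of genes at 5 FPKM or more in all columns, 14.3% were 2-fold higher there and 5% lower. Under each of the 4 other scalings 1 gene of the class was 2-fold lower there (14.6% to 16.4% of all genes kept). The median then lay between -0.06 and -0.01. With a pseudocount of 0.1 there was 1 gene 2-fold higher (29.1% of all genes kept). In the cytoplasm Eif4e, Eif4e3, Eif4g2 and Eif4g3 were 2-fold or more lower in MTR4-null (36.4%, with 29.1% of genes at 5 FPKM or more in all columns). Under the other scalings 1 to 3 genes of the class were so, with 5.21% to 13.0% of all genes kept. Eif4e3, a relative of eIF4E, was at 51.2 FPKM in the MTR4-null nucleus against 93.6 FPKM in the WT nucleus, and at 34.6 FPKM in the MTR4-null cytoplasm against 123 FPKM in the WT cytoplasm. Its cytoplasmic difference of -1.80 was between -1.83 and -1.17 over the alternatives. Eif4e itself was at 39.1 FPKM in the MTR4-null nucleus against 59.1 FPKM in the WT nucleus, and at 25.7 FPKM in the MTR4-null cytoplasm against 65.9 FPKM in the WT cytoplasm. Both were lowest in the MTR4-null cytoplasm. Eif4e2, which can bind the cap without starting translation, was at 16.3 and 7.96 FPKM in MTR4-null and WT nuclei and at 11.6 and 13.5 FPKM in MTR4-null and WT cytoplasms. Eif4e exceeded Eif4e2 2.40-fold in the MTR4-null nucleus against 7.42-fold in the WT nucleus, and 2.22-fold in the MTR4-null cytoplasm against 4.90-fold in the WT cytoplasm.

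Scaffold genes differed unequally between the cytoplasms, and no helicase gene passed 2-fold between genotypes. Eif4g1 was at 62.3 FPKM in the MTR4-null nucleus against 56.0 in the WT nucleus, and at 41.1 FPKM in the MTR4-null cytoplasm against 57.4 in the WT cytoplasm. Eif4g2, which acts without eIF4E, was at 42.1 against 50.1 FPKM in MTR4-null and WT nuclei and at 31.1 against 64.7 FPKM in MTR4-null and WT cytoplasms. Eif4g3 was at 16.6 against 23.7 FPKM in MTR4-null and WT nuclei and at 10.9 against 34.4 FPKM in MTR4-null and WT cytoplasms. Of the scaffolds, Eif4g3 thus had the largest cytoplasmic difference, at -1.57, which came to -0.94 with centring on genes at 5 FPKM or more in all columns. Eif4a1 was at 305 FPKM in the MTR4-null nucleus against 202 in the WT nucleus, and at 203 FPKM in the MTR4-null cytoplasm against 271 in the WT cytoplasm. Its relative Eif4a2 was at 78.6 against 56.5 FPKM in MTR4-null and WT nuclei and at 57.2 against 50.9 FPKM in MTR4-null and WT cytoplasms, and Eif4a3, the helicase of the exon junction complex, at 78.2 against 59.6 FPKM in MTR4-null and WT nuclei and at 59.5 against 99.3 FPKM in MTR4-null and WT cytoplasms. Eif4a2 shares 194 exonic bases with Rfc4 on the opposite strand. Eif4h, a partner of eIF4A, was at 132 FPKM in the MTR4-null nucleus against 83.3 in the WT nucleus, and at 61.3 FPKM in the MTR4-null cytoplasm against 93.3 in the WT cytoplasm. Eif4b, which also aids eIF4A, lay between 58.6 and 112 FPKM and was not 2-fold apart between genotypes.

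Repressors of eIF4E included 2 of the 3 members that were higher in the MTR4-null cytoplasm. 4E-binding proteins take the place of eIF4G on eIF4E until mTOR phosphorylates them. Eif4ebp2, the most abundant of them, was at 35.2 FPKM in the MTR4-null nucleus against 14.1 FPKM in the WT nucleus, and at 32.1 FPKM in the MTR4-null cytoplasm against 11.8 FPKM in the WT cytoplasm. Both MTR4-null columns were above both WT columns, with a nuclear difference of 1.26, which was no lower than 1.06 over the alternatives, and a cytoplasmic one of 1.37, which was the lowest over the alternatives. Eif4ebp1 was at 1.98 FPKM in the MTR4-null nucleus against 2.90 FPKM in the WT nucleus, and at 8.23 FPKM in the MTR4-null cytoplasm against 1.15 FPKM in the WT cytoplasm. Only the MTR4-null cytoplasm stood out, with a difference of 2.1. Eif4ebp3 was at 2.55 FPKM in the MTR4-null nucleus against 2.09 FPKM in the WT nucleus, and at 1.92 FPKM in the MTR4-null cytoplasm against 3.95 FPKM in the WT cytoplasm. It thus lay in the opposite direction to Eif4ebp1 and Eif4ebp2 in the cytoplasm, with a difference of -0.76 and a plain ratio of 0.485, and was 2-fold lower with a pseudocount of 0.1. The ratio of Eif4e to Eif4ebp2 was 1.11 in the MTR4-null nucleus against 4.21 in the WT nucleus, while it was 0.802 in the MTR4-null cytoplasm against 5.57 in the WT cytoplasm. A ratio within a column does not depend on how that column is scaled.

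eIF5A, which relieves ribosomes stalled at prolines, and eIF6, which keeps the large subunit from joining too early, were both abundant. Eif5a was at 183 FPKM in the MTR4-null nucleus and 175 in the WT nucleus, and at 129 FPKM in the MTR4-null cytoplasm and 209 in the WT cytoplasm. Its copy Eif5a2 was at 2.57 FPKM in the MTR4-null nucleus against 0.0701 FPKM in the WT nucleus, and at 1.40 FPKM in the MTR4-null cytoplasm against 0.488 FPKM in the WT cytoplasm. Eif5a2 passed 2-fold in the nucleus, at 1.74, but all of its levels were low and the read depth behind them is unknown. Eif6 was at 140 FPKM in the MTR4-null nucleus and 157 in the WT nucleus, and at 74.8 FPKM in the MTR4-null cytoplasm and 178 in the WT cytoplasm. Its cytoplasmic difference of -1.24 came to between -0.98 and -0.61 under the other scalings.

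Among the elongation factors, the genes of eEF1 differed unequally. Eef1a1 encodes the GTPase, and Eef1b2, Eef1d and Eef1g encode the complex that recharges it. Eef1a1 was at 429 FPKM in the MTR4-null nucleus against 534 FPKM in the WT nucleus, and at 290 FPKM in the MTR4-null cytoplasm against 686 FPKM in the WT cytoplasm. Eef1g was at 57.8 FPKM in the MTR4-null nucleus against 21.7 FPKM in the WT nucleus, and at 40.1 FPKM in the MTR4-null cytoplasm against 22.3 FPKM in the WT cytoplasm. Eef1a1 was lower and Eef1g higher in MTR4-null than in WT in both compartments, at -0.32 and 1.37 in the nucleus and -1.24 and 0.82 in the cytoplasm. Eef1g passed 2-fold in the nucleus under all 7 alternatives, and Eef1a1 passed it in the cytoplasm as deposited and under none of the other scalings. In the cytoplasm Eef1g, within 2-fold as deposited, was 2-fold or more higher under each of the 4 other scalings. Eef1a1 thus exceeded Eef1g 7.41-fold in the MTR4-null nucleus against 24.6-fold in the WT nucleus, and 7.23-fold in the MTR4-null cytoplasm against 30.8-fold in the WT cytoplasm. Eef1d was at 84.8 FPKM in the MTR4-null nucleus and 93.1 in the WT nucleus, and at 51.1 FPKM in the MTR4-null cytoplasm and 113 in the WT cytoplasm. Eef1b2 was at 55.5 FPKM in the MTR4-null nucleus against 30.2 in the WT nucleus, and at 34.3 FPKM in the MTR4-null cytoplasm against 24.5 in the WT cytoplasm, with differences of 0.86 and 0.47. Eef1e1, which encodes a protein of the aminoacyl-tRNA synthetase complex, lay between 43.0 and 68.4 FPKM and was not 2-fold apart between genotypes. Eef1a1 has 9 and Eef1g 4 near-identical copies in the annotation, so part of their reads may sit with these.

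eEF2 moves the ribosome by 1 codon, and its kinase, encoded by Eef2k, stops it by phosphorylation. Eef2 was at 185 FPKM in the MTR4-null nucleus against 137 FPKM in the WT nucleus, and at 133 FPKM in the MTR4-null cytoplasm against 171 FPKM in the WT cytoplasm. Eef2k was at 92.9 FPKM in the MTR4-null nucleus against 203 FPKM in the WT nucleus, and at 66.4 FPKM in the MTR4-null cytoplasm against 241 FPKM in the WT cytoplasm. Both MTR4-null columns of Eef2k were below both WT columns, with differences of -1.12 and -1.85, and it was 2-fold or more lower in both compartments under all 7 alternatives. In WT the kinase transcript exceeded that of its substrate, and in MTR4-null the substrate exceeded the kinase: the ratio of Eef2 to Eef2k was 1.99 in the MTR4-null nucleus against 0.676 in the WT nucleus, while it was 2.0 in the MTR4-null cytoplasm against 0.708 in the WT cytoplasm.

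Between nucleus and cytoplasm, 5 members were 2-fold or more higher in the MTR4-null nucleus than in the MTR4-null cytoplasm (9.26%, with 17% of all genes kept), and 1 was 2-fold or more lower (1.85%, with 1.84% of all genes kept). In WT, 0 members were 2-fold or more higher in the nucleus (12.4% of all genes kept) and 2 were 2-fold or more lower (3.70%, with 4.71% of all genes kept). Among the 49 members at 5 FPKM or more in all columns, 4 were higher and 0 lower in the MTR4-null nucleus (13.2% and 0.201% of genes at that level), and 0 were higher and 2 lower in the WT nucleus (1.74% and 1.94%). In MTR4-null 49 of 54 members were above 0 (90.7%, with 82.2% of all genes kept), with a median of 0.58 beside 0.52 over all genes kept. In WT 7 of 54 were above 0 (13%, with 45.8%), with a median of -0.26 beside -0.04. At 5 FPKM or more in all columns, 93.9% of members and 93.6% of genes were above 0 in MTR4-null. In WT these shares were 8.16% and 30.5%. With rescaling to the sum without small RNA genes the MTR4-null median was -0.030, so the direction in MTR4-null depends on scaling, while the WT median stayed below 0, between -0.22 and -0.077.

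Higher in the MTR4-null nucleus than in its cytoplasm were Eif2b2 at 1.88, Eif2b5 at 1.78, Eif2a at 1.53, Eif3f at 1.27 and Eif4h at 1.10, and lower was Eif4ebp1 at -1.63. Of these, Eif2b2, Eif2b5 and Eif4ebp1 passed 2-fold under all 7 alternatives. In WT, Eif2b2 at -1.29 and Eif3h at -1.27 were lower in the nucleus, under all 7 alternatives. Eif2b2 was therefore 2-fold or more apart between compartments in both genotypes, nucleus over cytoplasm in MTR4-null and cytoplasm over nucleus in WT. These comparisons use the same 4 columns as the genotype comparisons, so they add no independent measurement.

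**Figure D3:**
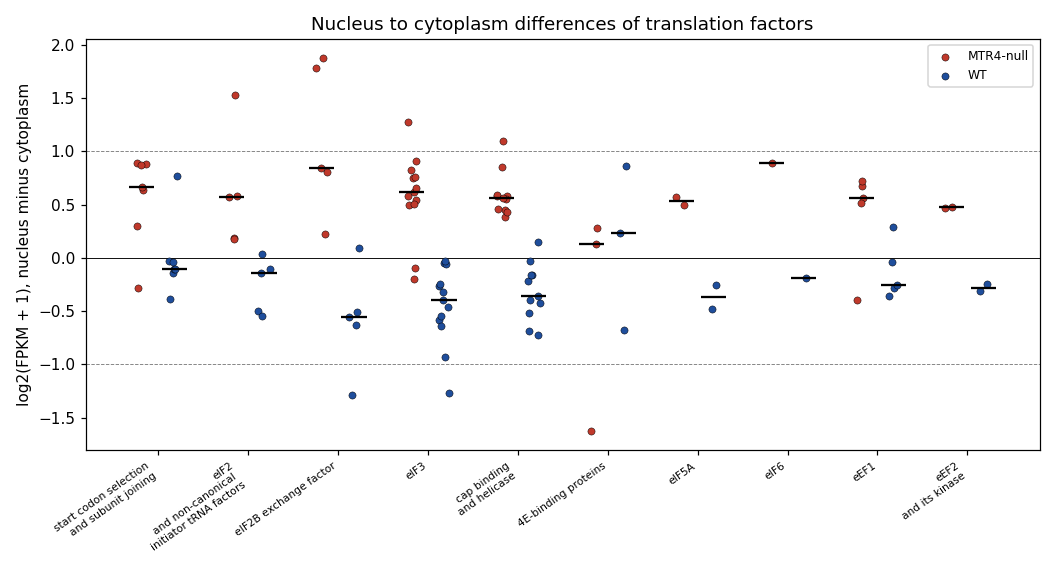
Difference between nucleus and cytoplasm, in log2(FPKM + 1), for each translation factor in MTR4-null (red) and WT (blue) oocytes by role, with black bars at the median of each role and dashed lines at 2-fold. MTR4-null points lie mostly above 0 and WT points mostly below, with medians over all members of 0.58 and -0.26 as deposited. Over all genes kept these medians were 0.52 and -0.04.

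Subtracting the WT compartment difference from the MTR4-null one gave values above 0 for 49 of 54 members (90.7%), beside 71.5% of all genes kept and 90.7% of genes at 5 FPKM or more in all columns. Of the members, 24 were 2-fold or more higher (44.4%, with 27% of all genes kept) and 2 2-fold or more lower (3.70%, with 10.7%). The higher count depended on scaling. Under the 4 other scalings 1.85% to 9.26% of members were 2-fold or more higher, with 6.12% to 9.11% of all genes kept. Among genes at 5 FPKM or more in all columns, 22 of 49 members were 2-fold or more higher (44.9%, with 31.4% of such genes) and 0 were lower (1%). The median was 0.93 as deposited, beside 0.57 over all genes kept, and between 0.15 and 0.36 under the other scalings, under which the median of all genes kept was between -0.21 and 0. The largest values were 3.17 for Eif2b2, 1.77 for Eif3h and 1.69 for Eif2b5, and the lowest were -2.49 for Eif4ebp1 and -1.05 for Eif1a.

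**Figure D4:**
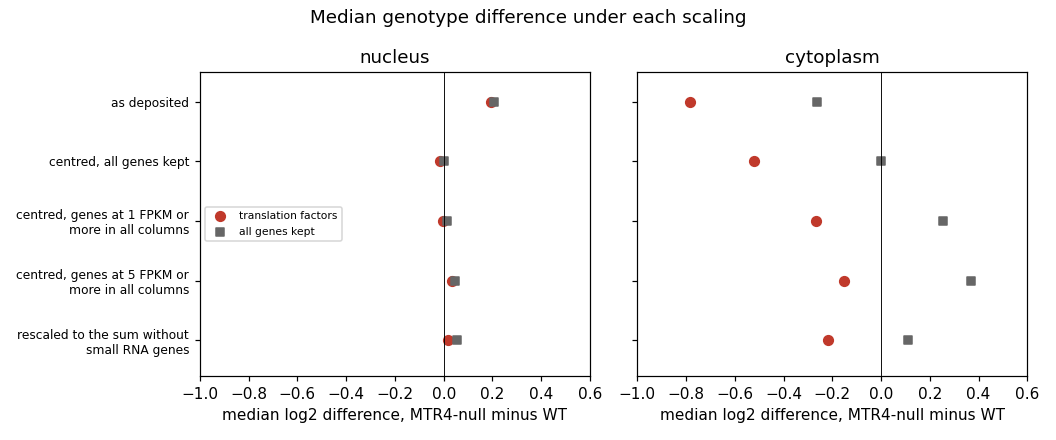
Median genotype difference (MTR4-null minus WT, log2) of the translation factors (red circles) and of all genes kept (grey squares) in nucleus and cytoplasm under 5 scalings. In the nucleus the medians stay within 0.21 of 0. In the cytoplasm the translation factors lie below all genes, at -0.79 as deposited and -0.15 with centring on genes at 5 FPKM or more in all columns. Centring moves both medians alike, so it cannot change the gap between them. As deposited, genes at 5 FPKM or more in all columns had a cytoplasmic median of -0.63.

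Several members carry small nucleolar RNAs (snoRNAs, guides of ribosomal RNA modification) within their genes. By RefSeq annotation 15 snoRNA genes lie within 8 members, 7 of them are in the table, and 5 were above 0 in at least 1 column. Snora28, within Eif5, was at 740 FPKM in the MTR4-null nucleus against 164 FPKM in the WT nucleus, and at 116 FPKM in the MTR4-null cytoplasm against 20.0 FPKM in the WT cytoplasm. Its host Eif5 was at 80.4 and 76.8 FPKM in MTR4-null and WT nuclei and at 43.4 and 78.7 FPKM in MTR4-null and WT cytoplasms, so the snoRNA was higher in MTR4-null in both compartments and its host was not. Snora81, within Eif4a2, was at 143 FPKM in the MTR4-null nucleus against 375 FPKM in the WT nucleus, and at 76.7 FPKM in the MTR4-null cytoplasm against 2.23 FPKM in the WT cytoplasm. Snora41, within Eef1b2, was at 38.7 against 65.6 FPKM in MTR4-null and WT nuclei, and was listed at 0 in the MTR4-null cytoplasm and at 4.19 FPKM in the WT cytoplasm. Snord37, within Eef2, at 1303 FPKM, and Snord2, within Eif4a2, at 105 FPKM, had signal in the MTR4-null nucleus, and the other 3 columns list 0 for both. Snora19 in Eif3a and Snord66 in Eif4g1 were listed at 0 throughout. The microRNA gene Mir1956, within Eif4e, was at 291 FPKM in the MTR4-null nucleus and 57.7 FPKM in the MTR4-null cytoplasm, and was listed at 0 in both WT columns.

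These RNAs are shorter than the selected cDNA fragments, so that few fragments can stand for many FPKM, and annotated host transcripts cover 127 bases of Snora28, 178 bases of Snora81, 69 bases of Snord2 and 61 bases of Mir1956 on the same strand, so reads of these pairs cannot be told apart there. Sequences on GRCm38 are given for Snora28, which was higher in MTR4-null in both compartments, and for Snord37, which had the highest level of the 5 in any column. Snora28, at chr12:111540941-111541067 on the plus strand, ends with the ACA box of H/ACA guides, which direct pseudouridylation, and Snord37, at chr10:81178950-81179013 on the plus strand, holds the C box TGATGA and the D box CTGA of guides of methylation. Capitals mark these boxes.
Snora28: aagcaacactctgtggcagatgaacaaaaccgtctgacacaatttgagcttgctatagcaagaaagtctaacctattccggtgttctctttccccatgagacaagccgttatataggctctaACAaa
Snord37: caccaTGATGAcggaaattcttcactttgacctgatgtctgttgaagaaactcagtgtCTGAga

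**Figure D5:**
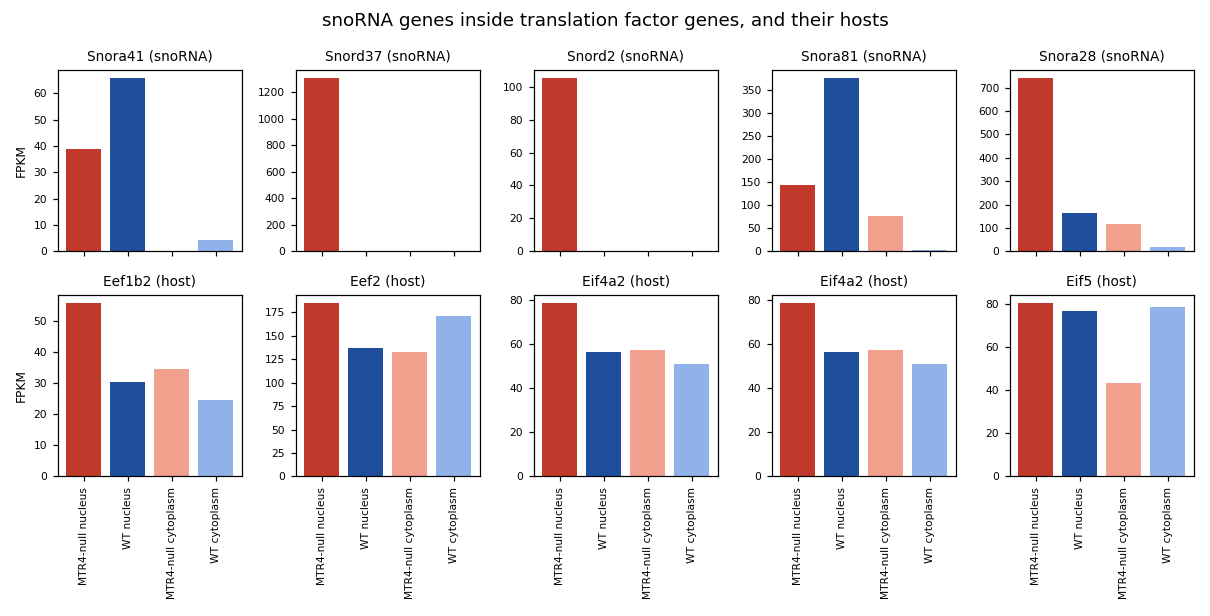
FPKM (linear axis from 0) of the 5 snoRNA genes above 0 that lie within translation factor genes, with each host gene below, for MTR4-null nucleus, WT nucleus, MTR4-null cytoplasm and WT cytoplasm. Host genes lie between 24.5 and 185 FPKM in all columns, while Snord37 and Snord2 have a bar in the MTR4-null nucleus alone.

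Genes of the same pathway outside the rule were counted in the same way. Of 9 genes for making hypusine on eIF5A or diphthamide on eEF2, 6 were 2-fold or more higher in the MTR4-null nucleus (66.7%, with 23.9% of all genes kept), with a median of 1.64, and 5 were so under each of the 4 other scalings. In the cytoplasm 4 were 2-fold or more higher (44.4%, with 15% of all genes kept), with a median of 0.43, and 0 were lower in either compartment. Dohh, which completes hypusine, was at 57.0 FPKM in the MTR4-null nucleus against 6.27 in the WT nucleus, and at 23.6 FPKM in the MTR4-null cytoplasm against 7.65 in the WT cytoplasm. Dhps, which begins it, was at 7.59 FPKM in the MTR4-null nucleus against 9.98 in the WT nucleus, and at 12.4 FPKM in the MTR4-null cytoplasm against 1.99 in the WT cytoplasm. In the nucleus Dhps, at -0.35, was the only gene of this list below 0. Dph2, of the diphthamide pathway, was at 27.4 FPKM in the MTR4-null nucleus against 4.56 in the WT nucleus. Eif5a and Eef2, whose proteins receive these modifications, were not 2-fold apart in either compartment.

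Of 9 termination and recycling genes, Pelo and Mcts1 were 2-fold or more higher in the MTR4-null nucleus (22.2%, with 23.9% of all genes kept), and Etf1 was 2-fold or more lower in the MTR4-null cytoplasm (11.1%, with 21.4%), but not under 3 of the 4 other scalings. Pelo, which rescues stalled ribosomes, was at 63.8 FPKM in the MTR4-null nucleus against 7.96 in the WT nucleus, and at 31.4 FPKM in the MTR4-null cytoplasm against 15.2 in the WT cytoplasm. Its cytoplasmic difference of 0.998 was just within 2-fold as deposited and passed it under each of the 4 other scalings. Mcts1, a ribosome recycling factor below the level set for naming genes and named after its values were seen, was at 4.85 FPKM in the MTR4-null nucleus against 0.654 in the WT nucleus. Abce1, which splits ribosomes, was at 10.5 FPKM in the MTR4-null nucleus against 4.86 in the WT nucleus, a difference of 0.98 that did not pass 2-fold. Etf1, the release factor, was at 15.4 FPKM in the MTR4-null cytoplasm against 41.9 in the WT cytoplasm. Of 6 measured genes of poly(A)-binding proteins and their partners, Pabpc1 alone was 2-fold or more higher in the MTR4-null nucleus, at 55.1 FPKM against 20.1 FPKM in WT, and in the cytoplasm Pabpc1 was higher and Paip1, Paip2 and Paip2b were lower (50%, with 21.4% of all genes kept), of which 0 to 2 were so under the 4 other scalings. Paip1 was chosen after its values were seen. The repressors of poly(A)-binding protein were Paip2 at 58.3 FPKM in the MTR4-null cytoplasm against 173 in the WT cytoplasm, and Paip2b at 65.1 FPKM in MTR4-null against 198 in WT. Of 22 cytosolic aminoacyl-tRNA synthetase and scaffold genes, Hars, Vars and Yars were 2-fold or more higher in the MTR4-null nucleus (13.6%, with 23.9% of all genes kept). In the MTR4-null cytoplasm Yars was higher (4.55%, with 15% of all genes kept). There 6 genes were lower (27.3%, with 21.4%), and 1 to 3 were lower under the other scalings. Yars, named after its values were seen, was at 5.27 FPKM in the MTR4-null nucleus against 1.91 in the WT nucleus, and at 4.23 FPKM in the MTR4-null cytoplasm against 0.299 in the WT cytoplasm. Hars was at 18.8 FPKM in the MTR4-null nucleus against 3.12 in the WT nucleus and Vars at 7.70 FPKM in MTR4-null against 1.06 in WT, while Cars was at 3.97 FPKM in the MTR4-null cytoplasm against 17.9 in the WT cytoplasm and Iars at 25.0 FPKM in MTR4-null against 70.4 in WT. Of 9 mitochondrial translation factor genes, Tsfm, Tufm and Mtif2 were 2-fold or more higher in the MTR4-null nucleus (33.3%, with 23.9% of all genes kept). In the MTR4-null cytoplasm Mtif2 was higher (11.1%, with 15% of all genes kept) and Gfm1 lower (11.1%, with 21.4%). Gfm1 was 2-fold or more lower under none of the other scalings. Mtif2, named after its values were seen, was at 7.44 FPKM in the MTR4-null nucleus against 2.78 in the WT nucleus, and at 4.18 FPKM in the MTR4-null cytoplasm against 1.58 in the WT cytoplasm. Tsfm was at 43.9 FPKM in the MTR4-null nucleus against 9.54 in the WT nucleus and Tufm at 26.3 FPKM in MTR4-null against 7.39 in WT, while Gfm1 was at 15.6 FPKM in the MTR4-null cytoplasm against 35.1 in the WT cytoplasm and Gfm2, at -0.9986 just within 2-fold, at 7.43 FPKM in MTR4-null against 15.8 in WT.

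Of 6 genes of eIF2 kinases and oocyte partners of eIF4E, 1 was 2-fold or more lower in the MTR4-null nucleus (16.7%, with 12.3% of all genes kept) and 2 in the MTR4-null cytoplasm (33.3%, with 21.4%). Eif2ak1 was at 60.6 FPKM in the MTR4-null nucleus and 49.4 in the WT nucleus, and at 39.1 FPKM in the MTR4-null cytoplasm and 71.1 in the WT cytoplasm. Eif2ak4, the kinase that senses missing amino acids, was at 11.2 against 21.5 FPKM in MTR4-null and WT nuclei and at 6.84 against 27.5 FPKM in MTR4-null and WT cytoplasms. Eif2ak2, which senses double-stranded RNA, was at 1.79 FPKM in the MTR4-null nucleus against 8.94 in the WT nucleus, and at 0.755 FPKM in the MTR4-null cytoplasm and 0.702 in the WT cytoplasm. Eif2ak2 in the nucleus and Eif2ak4 in the cytoplasm were 2-fold or more lower in MTR4-null. Eif2ak3, the kinase of the endoplasmic reticulum, was at 31.4 and 27.2 FPKM in MTR4-null and WT nuclei and at 30.8 and 15.6 FPKM in MTR4-null and WT cytoplasms. Its cytoplasmic difference of 0.94 was within 2-fold as deposited and passed it under each of the 4 other scalings. Eif4e1b, an oocyte form of eIF4E, exceeded Eef1a1, the highest member, in all 4 columns, at 646 FPKM in the MTR4-null nucleus against 674 in the WT nucleus, and at 438 FPKM in the MTR4-null cytoplasm against 871 in the WT cytoplasm. Its partner gene Eif4enif1, which encodes 4E-T, was at 172 and 208 FPKM in MTR4-null and WT nuclei and at 112 and 254 FPKM in MTR4-null and WT cytoplasms, a cytoplasmic difference of -1.18 that passed 2-fold as deposited and under none of the 4 other scalings.

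Sequence features of the members were set beside these differences. GC content of the transcripts had a Spearman's rho of 0.05 with the nuclear genotype difference over 53 members, against 0.22 over 11876 coding genes kept, and of -0.08 with the cytoplasmic one, against 0.19. Over 17, 19 and 17 members of low, middle and high GC content, the median nuclear difference was -0.08, 0.34 and 0.15, and the cytoplasmic one -0.85, -0.76 and -0.76. The 10 members whose mRNAs are known in mammals to start with a terminal oligopyrimidine tract, among them Eef1a1, Eef1g, Eef2 and Eif3e, had 1 higher and 1 lower in the MTR4-null nucleus and 4 lower in the MTR4-null cytoplasm, with medians of 0.39 and -0.96. In the nucleus the higher and the lower member were 10% of the list each, with 14.3% and 5% of genes at 5 FPKM or more in all columns. The 4 lower in the cytoplasm were 40% of the list, with 29.1% of such genes. Under the other scalings 0 or 1 were lower there and 1 or 2 were higher, against 0 higher as deposited. The cytoplasmic median then lay between -0.69 and -0.32. Of 55 members found in GENCODE M21, 17 have another gene at 95% identity or more over at least 200 bases. These 17 had a median of 0.39 in the nucleus and -0.70 in the cytoplasm, against 0.19 and -0.80 for the 36 kept members without such a copy.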

How the data were processed

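Total RNA sequencing of nuclei and cytoplasms from day 21 oocytes was used as the authors deposited it: 1 table of FPKM values for 23235 gene symbols, with a single column per group. The submitters' processing notes name TopHat2 2.1.1, Cufflinks 2.2.1 and the build mm9, with no settings. The labels do not say how many libraries stand behind each column, and the read depth is unknown. An unnamed row that sums the others, 50% of all values, was left out.

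Python 3.11.15 with numpy 2.4.6 and pandas 2.3.3 computed differences of log2(FPKM + 1) for the 14270 genes at 1 FPKM or more in at least 1 column. This scale understates differences of genes with low values. A test with limma had been planned for single libraries, and with 1 column per group it could not be run. Genes 2-fold or more apart were counted, and the counting was tested on simulated data. The alternatives, 6 planned and 1 added after seeing the data, were another pseudocount, 2 other filters and 4 other scalings. A filter changes which genes are counted and not the value of a gene. For a single gene, only the other pseudocount and the 4 other scalings could therefore alter a result.

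The members, their role classes and the other lists were chosen with earlier results of these data known. By rule, 41 members were given with values: the 10 highest by mean FPKM, those 2-fold or more apart and at 5 FPKM or more in 1 of the columns compared, and all members of set paralog groups. From the other lists, the 2 genes with the largest difference in each genotype comparison among those whose higher column held 5 FPKM or more were named, and all eIF2 kinases, Eif4enif1 and Eif4e1b. Other members are given by range or were described after their values were seen.

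Gene annotation came from GENCODE M21 and RefSeq on GRCm38, not the authors' build, so it was matched by symbol only: 55 of 56 members matched. Near-identical copies were searched among transcripts with BLAST+ 2.17.0.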

Additional observations from a re-analysis of the deposited data

Results flagged for a closer look

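Eif2b2, the beta subunit gene of eIF2B, was the only named member 2-fold or more apart between genotypes in opposite directions in nucleus and cytoplasm. It was at 37.8 FPKM in the MTR4-null nucleus against 11.8 FPKM in the WT nucleus, and at 9.54 FPKM in the MTR4-null cytoplasm against 30.2 FPKM in the WT cytoplasm. The nuclear difference minus the cytoplasmic difference was 3.17 on the log2 scale. This difference between compartments was not tested, since each group has 1 column. The share of all genes with the same joint pattern was not computed. Counted apart, 23.9% of all genes kept were 2-fold or more higher in the MTR4-null nucleus and 21.4% lower in the MTR4-null cytoplasm.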

How the results depend on the processing

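The 2 other filters cannot change the value of a gene, so all 164 differences of named members were the same under them. The 164 include those of Eef1a2 and Eif2s3y, which were listed at 0 in all 4 columns. With a pseudocount of 0.1, 157 kept their direction and their side of 2-fold, and 7 more passed 2-fold. Under the 4 scalings, 99 to 123 kept both and 12 to 19 no longer passed 2-fold. A further 3 or 4 passed it, and 26 to 42 that were within 2-fold as deposited changed sign. With that pseudocount, 2 members became higher in the WT nucleus than in the WT cytoplasm, against 0 as deposited.

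With centring on genes at 1 FPKM or more in all 4 columns, the median genotype difference was -0.0026 in the nucleus, where 5 members were lower, and -0.27 in the cytoplasm, where 5 were higher and 5 lower. The median compartment difference was then 0.0035 in MTR4-null, with 2 members higher, and -0.12 in WT, and the difference between the 2 was 0.23. With centring on all genes kept, the nuclear median was -0.015 with 5 members lower, the cytoplasmic one -0.52 with 8 lower, the MTR4-null compartment median 0.053 with 3 higher, and the difference between compartment differences 0.36.

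With rescaling to the sum without small RNA genes, the nuclear median was 0.018 with 5 members lower and the cytoplasmic one -0.22 with 6 higher and 5 lower. The MTR4-null compartment median was -0.030, with 2 members higher and 2 lower, the WT one -0.11, and their difference 0.19. With centring on genes at 5 FPKM or more in all 4 columns, added after seeing the data, the nuclear median was 0.033 and the cytoplasmic one -0.15 with 6 higher and 2 lower. The MTR4-null compartment median was -0.018 with 2 higher, the WT one -0.077 with 1 higher, and their difference 0.15. The cause of these shifts was not tested.

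No difference of a named member that was 2-fold or more apart as deposited changed its sign under any of these 7 alternatives. In the nucleus the genes Eef1g, Eef2k, Eif1a, Eif2a, Eif2b2, Eif2b5, Eif2s2, Eif3e, Eif4ebp2 and Eif5a2 stayed 2-fold or more apart under all of them. No paired analysis was possible because each group has 1 deposited column with no replicate number, and for the same reason no library was left out.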
